A study of Mus musculus with 18 samples.

Results

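PU.1 and C/EBPα are transcription factors that act together in the myeloid lineage. PU.1 is an ETS-family factor needed for macrophages and, at lower levels, for B cells, and it binds purine-rich DNA around a GGAA core. C/EBPα and its relative C/EBPβ are basic leucine zipper factors that bind a shared palindromic motif as dimers and can drive B-lineage cells towards macrophages. The regions described here are PU.1 sites that had almost no PU.1 in uninduced pre-B cells, carried it at 24 and 48 h post-induction (hpi), and carried C/EBPα at 1 or more times. They number 531 bins of 200 bp among 12361722 bins of mouse chromosomes 1 to 19 (build mm9), and joining adjoining bins gave 476 sites. Of the sites, 422 were 1 bin wide, 53 held 2 bins and 1 held 3.

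The cells were C10, a line derived from the HAFTL pre-B line that carries a C/EBPα-estrogen receptor fusion with a GFP tag. β-estradiol moves the fusion into the nucleus, and the cells then take on macrophage features. Every induced sample received 100 nM β-estradiol with 10 nM IL-3 and CSF-1 per the labels, whereas control cells received 0.1% ethanol. The study's methods give the β-estradiol dose in µM instead of nM, and which unit applies was not settled here. The fusion gene was present at every time, 0 h included, so all groups share it. The 18 ChIP-seq libraries came from C/EBPα at 0 h, 10, 30 and 60 min, 3, 12, 24 and 48 h, and from C/EBPβ and PU.1 at 0, 3, 12, 24 and 48 h. PU.1 at 10, 30 and 60 min was not analysed here. Each factor and time had 1 library, no input or control antibody was analysed, and all cells came from a single line. Hence no difference has a replicate check and no test across samples was possible. Every interval below is a 95% interval, exact Poisson for reads and Clopper-Pearson for shares. Those for shares treat sites, bins or genes as independent draws and hold no spread between libraries or cultures. Whether intervals overlap is therefore a description and not a test. The C/EBPα libraries held 5970869 to 24917810 distinct reads, those of C/EBPβ 2903580 to 5844202, and those of PU.1 6575348 to 11349746. The C/EBPα libraries at 10, 30 and 60 min were sequenced on another instrument than the rest, so time and instrument cannot be told apart there.

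All levels are reads per 200-bp bin scaled to 10000000 distinct reads of the library, called scaled reads below. A site is represented by its bin with the most PU.1 at 24 and 48 h. The sites were chosen by these levels: PU.1 of 15 or more at both 24 and 48 h, PU.1 of 3 or less at 0 h, and C/EBPα of 12 or more at 3, 12, 24 or 48 h. Values of PU.1 at 0, 24 and 48 h and of C/EBPα at those 4 times are therefore a description and carry no test. Nearest to each limit, the lowest PU.1 inside was 15.3 against 14.98 just outside, the highest PU.1 at 0 h was 2.84 inside against 4.25 outside, and the lowest top C/EBPα was 12.6 inside against 11.9 outside. A further 279 bins had PU.1 from 12 up to 15, 353 had PU.1 at 0 h above 3 and up to 6, and 153 had C/EBPα from 9 up to 12, while meeting the other limits. At 0 h, 85 sites had no PU.1 read, 186 had 1 read and 205 had 2.

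Sequences are shown for sites that carry recognisable C/EBP and PU.1 letters, since the order and spacing of both motifs varied widely between sites. Capitals mark matches on either strand to the C/EBP motif TTGCNNAA, to the PU.1 motif GAGGAAGT and to its shorter core AGGAAG, which lies within GAGGAAGT. All are the plus strand of mm9, labelled by the nearest gene, and positions count from 1 at the first base of the bin. Only 1 site met the naming rule for both full motifs, so 7 others were added after their values were seen; 6 of them hold TTGCNNAA and AGGAAG and 1 holds GAGGAAGT without TTGCNNAA. The Cux1 site is the highest without either motif.
Pid1, chr1:84403601-84403800: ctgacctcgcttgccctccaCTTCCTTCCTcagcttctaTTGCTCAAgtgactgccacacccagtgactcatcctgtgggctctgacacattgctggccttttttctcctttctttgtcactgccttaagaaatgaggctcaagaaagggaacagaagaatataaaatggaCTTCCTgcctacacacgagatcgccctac
Elk3, chr10:92731201-92731400: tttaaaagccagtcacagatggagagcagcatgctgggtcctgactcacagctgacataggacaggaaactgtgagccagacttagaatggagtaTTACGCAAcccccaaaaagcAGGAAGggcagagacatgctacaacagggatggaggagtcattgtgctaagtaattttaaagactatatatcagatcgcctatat
Ptafr, chr4:132147201-132147400: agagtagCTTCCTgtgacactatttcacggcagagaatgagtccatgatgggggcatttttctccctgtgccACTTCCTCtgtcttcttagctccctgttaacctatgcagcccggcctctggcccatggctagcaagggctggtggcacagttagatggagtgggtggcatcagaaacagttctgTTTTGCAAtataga
Klf6, chr13:5874801-5875000: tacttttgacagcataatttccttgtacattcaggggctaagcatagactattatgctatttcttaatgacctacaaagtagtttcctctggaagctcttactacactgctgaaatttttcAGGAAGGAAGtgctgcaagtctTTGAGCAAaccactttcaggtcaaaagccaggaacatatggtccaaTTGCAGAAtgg
Mmp12, chr9:7336801-7337000: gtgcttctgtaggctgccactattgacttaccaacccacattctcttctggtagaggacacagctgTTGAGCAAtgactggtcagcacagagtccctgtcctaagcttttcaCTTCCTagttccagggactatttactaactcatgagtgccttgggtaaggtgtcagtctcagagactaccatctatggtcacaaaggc
Hexa, chr9:59385601-59385800: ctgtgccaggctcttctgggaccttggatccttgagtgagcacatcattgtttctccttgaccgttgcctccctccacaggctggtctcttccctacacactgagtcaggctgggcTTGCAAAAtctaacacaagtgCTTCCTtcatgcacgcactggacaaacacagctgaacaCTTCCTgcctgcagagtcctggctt
Cd36, chr5:17363201-17363400: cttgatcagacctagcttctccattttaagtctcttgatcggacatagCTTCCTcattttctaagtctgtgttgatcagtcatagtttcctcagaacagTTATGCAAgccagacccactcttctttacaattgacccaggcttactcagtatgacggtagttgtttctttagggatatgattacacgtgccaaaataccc
Csf2rb, chr15:78186001-78186200: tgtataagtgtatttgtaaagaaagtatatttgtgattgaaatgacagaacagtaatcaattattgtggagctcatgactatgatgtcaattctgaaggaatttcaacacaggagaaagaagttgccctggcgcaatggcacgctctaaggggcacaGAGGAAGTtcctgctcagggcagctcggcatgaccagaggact
Cux1, chr5:136934401-136934600: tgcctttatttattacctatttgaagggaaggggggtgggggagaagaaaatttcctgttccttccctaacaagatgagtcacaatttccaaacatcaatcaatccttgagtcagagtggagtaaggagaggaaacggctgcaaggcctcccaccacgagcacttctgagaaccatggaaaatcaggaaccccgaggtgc
In the Elk3 site the C/EBP match starts at 96 and the PU.1 core at 116. The Ptafr site keeps them far apart, with the full PU.1 motif at 73 and the C/EBP match at 187. The Klf6 site holds C/EBP matches at 144 and 190 and overlapping PU.1 cores at 122 and 126.

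PU.1 at these sites was low in pre-B cells by the choice, and its summed level at 12 hpi was most of that at 48 hpi. The median over the 476 sites was 1.42 scaled reads at 0 h, 9.12 at 3 h, 25.2 at 12 h, 23.8 at 24 h and 28.7 at 48 h. Summed over sites, PU.1 at 3 h was 34.7% of its 48 h level and at 12 h 85.4%. At constant PU.1 sites (15 or more at 0, 3, 12, 24 and 48 h) it was 117% at 3 h, 114% at 12 h and 86.1% at 24 h. Libraries thus differed at sites without a gain, and the part of this in the time course was not tested. At 3 h, a time the choice did not use, 140 sites (29.4%, interval 25.4 to 33.7) already held 15 or more, against 15.6% of all gained PU.1 bins. At 12 h the count was 389 sites (81.7%, 78.0 to 85.1), against 68.9% of gained bins. These background shares include the members. In a bulk culture, fewer cells with a bound site and less binding per cell cannot be told apart.

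**Figure D1:**
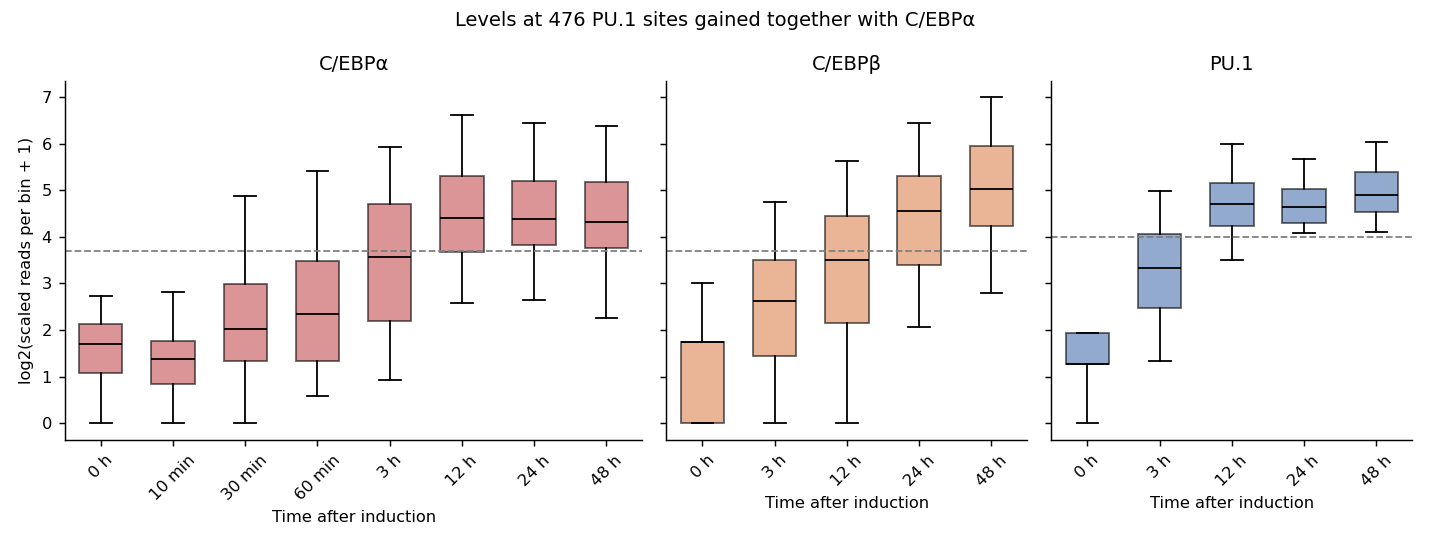
Scaled reads per bin, as log2 of the value plus 1, at the 476 sites in each of the 18 libraries. Boxes span the quartiles with the median as a line, whiskers reach the 5th and 95th percentiles, and dashed lines mark 12 for C/EBPα and C/EBPβ and 15 for PU.1. The PU.1 median lies at 1.42 at 0 h and 25.2 at 12 h, whereas the C/EBPβ median is still 10.3 at 12 h and 31.5 at 48 h.

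C/EBPα arrived over a wide span of times. Its median was 2.26 at 0 h, 1.61 at 10 min, 3.08 at 30 min, 4.09 at 60 min and 10.8 at 3 h, and then 20.1, 19.8 and 18.9 at 12, 24 and 48 h. Before 3 h, times the choice did not use, 7 sites (1.47%) were at 12 or more at 10 min, 62 (13%, 10.1 to 16.4) at 30 min and 97 (20.4%, 16.8 to 24.3) at 60 min. Among all bins with PU.1 of 15 or more at 24 and 48 h, 11.5% reached 12 at 30 min and 11.6% at 60 min. The interval of the sites included that background at 30 min and lay above it at 60 min, but the bins behind it were not chosen for C/EBPα. Of the 15687 other bins that met the same C/EBPα limit with PU.1 of 3 or less at 0 h, 29.6% were at 12 or more at 30 min and 39.9% at 60 min, both above the member sites. Summed over sites, C/EBPα at 60 min was 35.1% and at 3 h 65.3% of the 48 h level, whereas at 12 h it was 112%. At constant PU.1 sites the same values were 109%, 127% and 149%.

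The first time at which C/EBPα reached 12 was 0 h at 4 sites, 10 min at 5, 30 min at 53, 60 min at 37, 3 h at 121, 12 h at 150, 24 h at 63 and 48 h at 43. PU.1 first reached 15 at 3 h at 140 sites, at 12 h at 251 and at 24 h at 85. By these limits C/EBPα came first at 196 sites (41.2%, 36.7 to 45.7), both came at the same time point at 169 (35.5%) and PU.1 came first at 111 (23.3%, 19.6 to 27.4). The order depends on the unequal limits, and C/EBPα was measured at 3 times that PU.1 lacks here. Over the shared times of 0, 3, 12, 24 and 48 h, C/EBPα came first at 137 sites (28.8%), both together at 220 (46.2%) and PU.1 first at 119 (25%). The choice fixed PU.1 at 24 and 48 h but C/EBPα at only 1 of 4 times. The 43 sites where C/EBPα first reached 12 at 48 h therefore count as PU.1 first, in both tallies, by the choice alone. The 63 sites where it first did so at 24 h could not count as C/EBPα first either. At 47 sites (9.87%) C/EBPα was at 12 or more at 3 or 12 h but at neither 24 nor 48 h. The tallies describe the order under these limits and this choice, and they do not test it.

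At 3 h, 97 sites held both factors over their limits, 114 held C/EBPα alone, 43 held PU.1 alone and 222 held neither. Sites with C/EBPα alone at 3 h had a median PU.1 of 9.12 at that time and 27.7 at 48 h, and those with PU.1 alone had 18.2 at 3 h and 31.5 at 48 h. The C/EBP motif was present in 41.2% of the sites with both factors at 3 h and in 39.5% of those with C/EBPα alone, in 11.6% of the 43 with PU.1 alone and in 24.8% of those with neither, against 9.28% of all bins. C/EBPβ was at 12 or more at 48 h in 93.8%, 94.7%, 67.4% and 77.0% of these classes.

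Sites where PU.1 came early also had earlier C/EBPα and higher C/EBPα medians. Among the 140 sites with PU.1 of 15 or more at 3 h, 41.4% (33.2 to 50.0) had C/EBPα of 12 or more at 60 min, compared with 12.4% (8.55 to 17.1) of the 251 sites where PU.1 came at 12 h and 9.41% (4.15 to 17.7) of the 85 where it came at 24 h. C/EBPβ at 3 h showed the same order, with 32.9%, 9.96% and 5.88% of sites at 12 or more. At 48 h the shares with C/EBPβ at 12 or more were 85.7%, 83.3% and 82.4%, and the medians had the same order as before, with C/EBPβ of 36.4, 31.5 and 25.6 and C/EBPα of 22, 20.1 and 16.3. Median C/EBPα at 12 h was 28.5, 16.7 and 11.7. The shares with C/EBPα at 12 or more at 48 h did not have that order, with 76.4%, 73.3% and 81.2%. C/EBPα at 12 and 48 h was part of the choice of the sites, so these values only describe. The intervals of the 3 h class did not overlap those of the later classes at 60 min, whereas the later classes overlapped each other. Across the 476 sites, Spearman's rho between PU.1 at 3 h and C/EBPα was 0.48 for 60 min and 0.50 for 3 h. This is a description over sites of the same libraries.

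C/EBPβ, which the rule did not use, rose in median at every step to 48 h. The late levels of PU.1 and C/EBPα were part of the choice, so C/EBPβ is not ranked against them. Its median was 2.33 at 0 h, 5.13 at 3 h, 10.3 at 12 h, 22.4 at 24 h and 31.5 at 48 h, and it was higher at 48 h than at 0 h in 468 of 476 sites. The sites at 12 or more numbered 5 (1.05%) at 0 h, 76 (16.0%) at 3 h, 212 (44.5%) at 12 h, 352 (73.9%) at 24 h and 399 (83.8%, 80.2 to 87.0) at 48 h. Among all bins with late PU.1 the same shares were 2.59%, 7.00%, 10.5%, 17.0% and 18.6%, and among all bins of the genome 0.183% reached 12 at 48 h. Summed over sites, C/EBPβ at 12 h was 34.6% of its 48 h level. The 112% of C/EBPα at 12 h rests on values that the choice used, so the 2 shares only describe. The C/EBPβ libraries are shallow, and 1 read was worth from 1.71 to 3.44 scaled reads, so 4 reads at 12 h and 7 at 48 h were enough for the limit. Only 51 sites (10.7%) stayed under 12 for C/EBPβ at all 5 times, and 7.84% of these held the C/EBP motif.

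**Figure D2:**
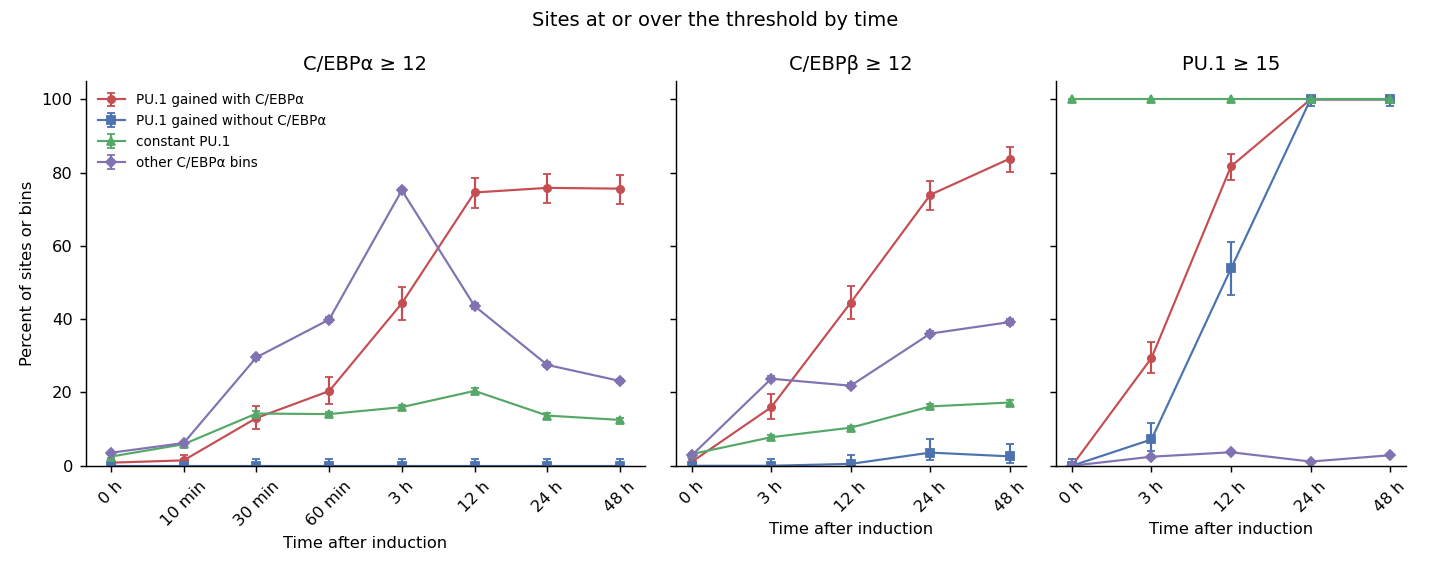
Percent of sites or bins at or over 12 scaled reads (C/EBPα, C/EBPβ) or 15 (PU.1) by time, for the 476 sites, 195 PU.1 sites gained without C/EBPα, 11472 constant PU.1 sites and 15687 other C/EBPα bins (12 or more at 3, 12, 24 or 48 h, PU.1 of 3 or less at 0 h, not members); error bars are 95% Clopper-Pearson intervals. C/EBPα at 48 h is at 75.6% in the 476 sites but 23.1% in the other C/EBPα bins, which peak at 75.2% at 3 h.

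Very few C/EBPα sites gained PU.1 in this way. Of 16218 bins with C/EBPα of 12 or more at 3, 12, 24 or 48 h and PU.1 of 3 or less at 0 h, 3.27% were members, while 0.0130% of all bins with PU.1 of 3 or less at 0 h reached 15 at 24 and 48 h. The other 15687 C/EBPα bins were under 15 for PU.1 at 24 h, at 48 h or at both, although 450 of them were at 15 or more at 48 h and 578 at 12 h. They were chosen by the same C/EBPα limit, so their C/EBPα values at these 4 times are a description like those of the members. Their share at 12 or more was 75.2% at 3 h and then 43.6%, 27.5% and 23.1% at 12, 24 and 48 h, compared with 44.3%, 74.6%, 75.8% and 75.6% of the member sites. C/EBPα was higher at 48 h than at 3 h in 393 of the 531 member bins (74.0%) and in 3266 of the 15687 others (20.8%). The mean C/EBPα level at 48 h was 152% of that at 3 h in member bins and 40.0% in the others. Where C/EBPα was at 12 or more at 3 h, 85.8% of 233 member bins and 19.5% of 11792 others were also at 12 or more at 48 h.

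In the other C/EBPα bins C/EBPβ did not follow the C/EBPα time course. Its share at 12 or more was 23.7% at 3 h and 39.2% at 48 h there, while that of C/EBPα was 75.2% and 23.1%. Among bins that still held C/EBPα of 12 or more at 48 h, C/EBPβ was at 12 or more in 91.5% (88.3 to 94.0) of 399 member bins and in 83.4% (82.2 to 84.6) of 3630 others. The member bins in that stratum also had the higher C/EBPα median, 25.1 against 17.6. The part of that higher level in the C/EBPβ difference was not tested. Across the 476 sites, Spearman's rho between C/EBPα and C/EBPβ at 48 h was 0.75, against 0.25 between PU.1 and either of them. The choice of sites cut off low PU.1 at 48 h, whereas C/EBPβ was free and C/EBPα could pass its limit at another time. The part of this cut in the lower rho of PU.1 was not tested. These values therefore only describe and do not rank the pairs of factors.

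C/EBPα was not held to the end at every site. A total of 165 sites (34.7%) were at 12 or more at all of 3, 12, 24 and 48 h, and in 97.0% of these C/EBPβ reached 12 at 48 h, with a median of 63.0. Another 108 sites (22.7%) first reached the C/EBPα limit at 24 or 48 h among these 4 times, and 113 (23.7%) were over it at exactly 1 of them. At 116 sites (24.4%) C/EBPα had been over 12 earlier but was under it at 48 h. C/EBPβ was at 12 or more at 48 h at 68 of these 116, and PU.1 at 48 h had a median of 25.8 over the 116.

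Compared with the 195 PU.1 sites gained without C/EBPα (3 or less at 3, 12, 24 and 48 h), the 476 sites had more PU.1 early on. PU.1 reached 15 at 3 h in 7.18% (3.98 to 11.8) and at 12 h in 53.8% (46.6 to 61.0) of the sites without C/EBPα. Both intervals lay below those of the member sites. Between the limits stood 775 sites with C/EBPα above 3 and under 12, of which 9.94% and 65.7% reached 15 at 3 and 12 h. C/EBPβ at 48 h was at 12 or more in 2.56% of the sites without C/EBPα, in 16.9% of those in between and in 17.3% of the constant PU.1 sites. PU.1 at 48 h, which chose all these gained sites, had a median of 23.9 without C/EBPα, 24.8 in between and 28.7 in member sites. The earlier PU.1 of member sites thus goes with a somewhat higher late level, and the part of that level was not tested.

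**Figure D3:**
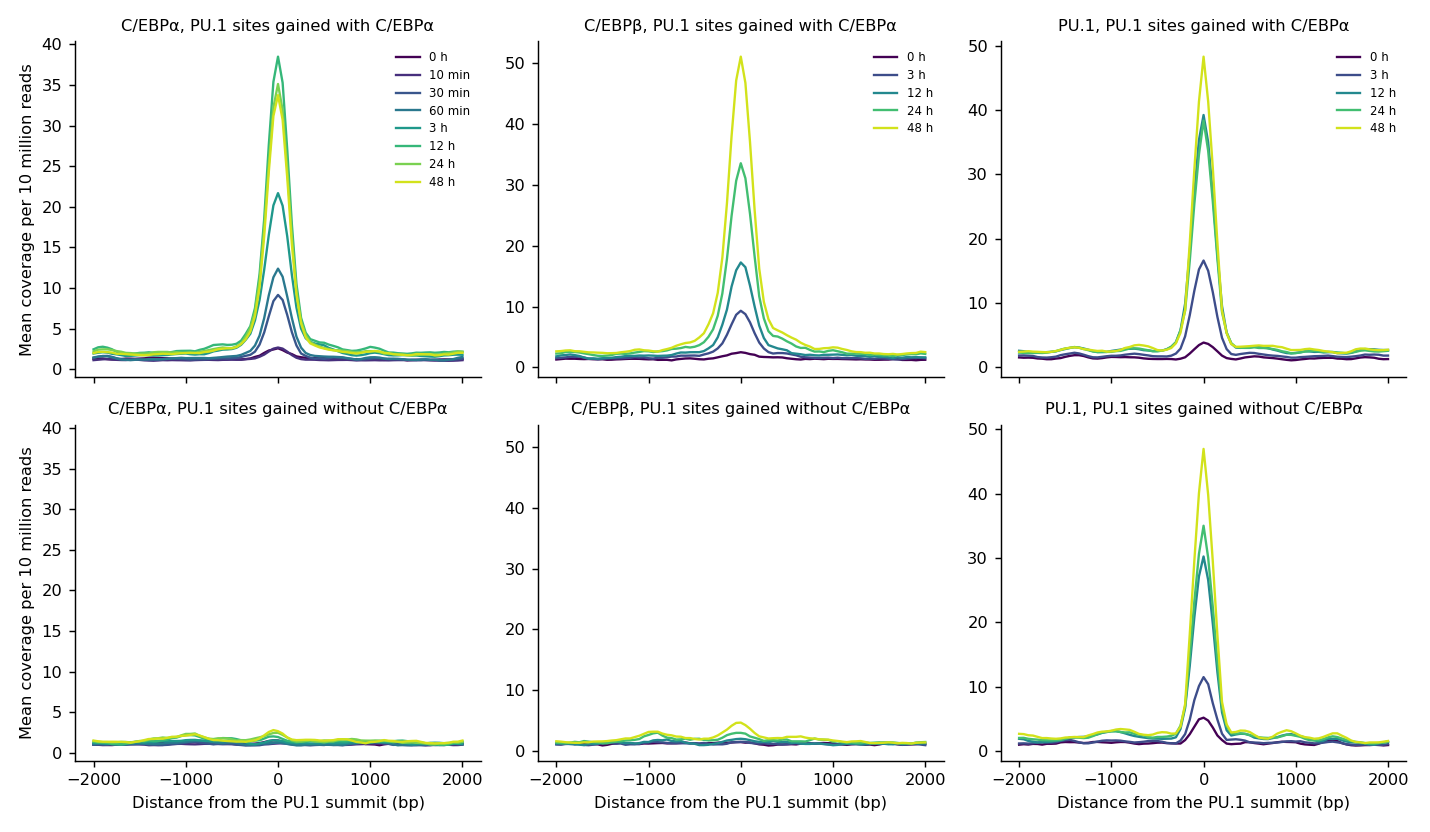
Mean coverage of reads extended to 200 bp, per 10000000 reads, against distance from the PU.1 summit in bp, for the 476 sites (top) and the 195 PU.1 sites gained without C/EBPα (bottom); lines are times. At the summit of member sites, C/EBPα reaches 38.5 at 12 h, C/EBPβ 51.1 at 48 h and PU.1 48.3 at 48 h, whereas C/EBPβ at 48 h stays at 4.66 in the lower row.

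The 3 factors had their mean coverage peaks close together. For PU.1 and C/EBPα the choice of sites largely fixed this, since both had to pass their limits in the same 200-bp bin, and only C/EBPβ was free of it. Mean PU.1 coverage at 48 h was 48.3 at the PU.1 summit and 2.59 at 1000 bp from it, a ratio of 18.6. Centred on the same PU.1 summits, the ratio was 16.1 for C/EBPα and 16.9 for C/EBPβ at 48 h. The distance between the C/EBPα and PU.1 summits had a median of 39.0 bp (quartiles 20.8 and 75), and 285 of 476 sites had them within 50 bp. A small PU.1 summit of 3.86 was already there at 0 h, with a ratio of 2.78 to the flanks. It was 5.17 with a ratio of 3.95 in the sites without C/EBPα. No member bin itself held more than 2.84 scaled reads at 0 h, and the part of neighbouring bins in this summit was not tested. At 34 member sites a bin within 1 kb held 15 or more PU.1 at 0 h, and those sites had a median PU.1 of 16.0 at 3 h. Without them the count was 442 sites, with 27.1% at 15 or more at 3 h.

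The sites carried C/EBP letters as often as other C/EBPα bins and, in the bins as placed, the full PU.1 motif, but not its core, less often than other gained PU.1 sites. TTGCNNAA occurred in 145 of 476 member bins (30.5%, 26.4 to 34.8), compared with 9.28% of all bins without unknown bases, 6.67% (3.60 to 11.1) of sites gained without C/EBPα, 9.29% of those in between, 9.21% of constant PU.1 sites and 31.9% of the other C/EBPα bins. GAGGAAGT occurred in 49 member bins (10.3%, 7.71 to 13.4), compared with 1.2% of all bins, 19.5% (14.2 to 25.8) without C/EBPα, 17.8% (15.2 to 20.7) in between, 31.1% (30.2 to 31.9) of constant sites and 1.38% of the other C/EBPα bins. The shorter AGGAAG was in 57.1% (52.6 to 61.6) of member bins, 59.5% of sites without C/EBPα, 58.8% of those in between, 67.4% of constant sites and 21.2% of all bins. The full motif thus separated these classes more than its core did. Bins starting 100 bp further on gave 14.0% (11 to 17.4) of member bins with GAGGAAGT. That interval overlaps those of the sites without C/EBPα and in between, but these were not recounted in the shifted bins. Whether the lower share in the members depends on where the bins start was therefore not tested. A match is a run of letters and not a measured binding site.

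Both motifs were denser at the PU.1 summit. In the 50 bp on either side of the summit there were 11.6 and 12.4 C/EBP matches per 100 member sites, compared with 1.03 and 2.56 in the sites without C/EBPα. The full PU.1 motif gave 7.35 and 7.98 matches per 100 member sites, compared with 16.9 and 15.4 in the sites without C/EBPα. In the sites in between it gave 11.6 and 13.3. These windows are centred on summits and not on bins. Beyond 400 bp member sites held from 1.68 to 2.94 C/EBP matches per 100 sites in 50 bp. Where both full motifs lay within 150 bp of the summit, at 34 sites, their centres were a median of 59.5 bp apart, and 7 of the 34 pairs were within 20 bp.

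**Figure D4:**
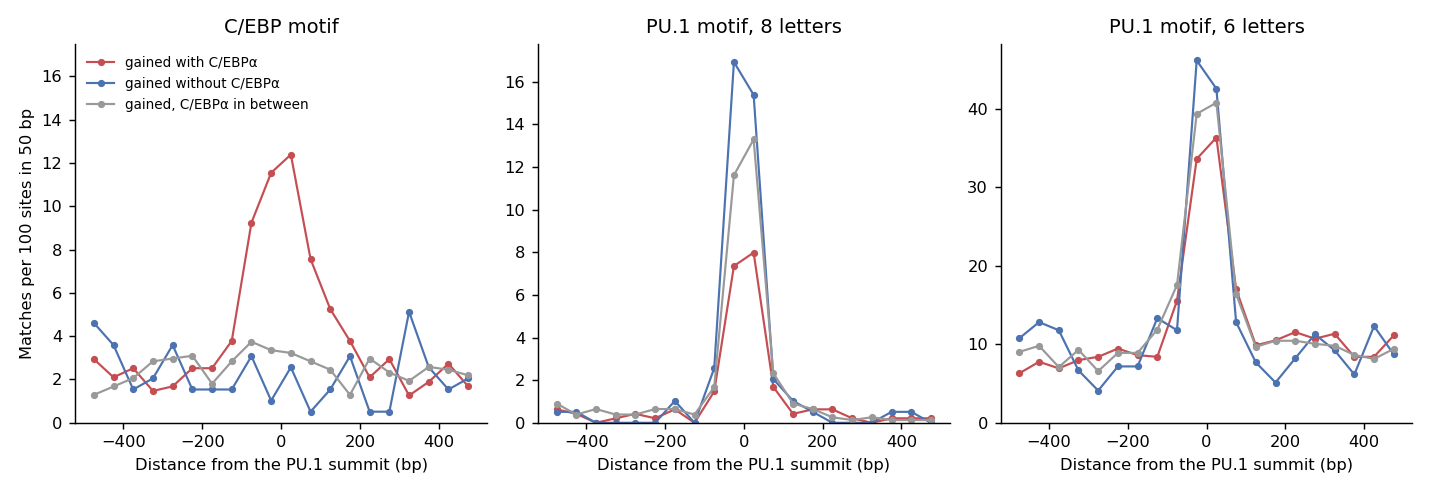
Motif matches per 100 sites in windows of 50 bp against distance from the PU.1 summit in bp, for the 476 sites gained with C/EBPα, the 195 without it and the 775 in between; panels show TTGCNNAA, GAGGAAGT and AGGAAG on both strands, each on its own scale. The C/EBP panel peaks at 12.4 in the member sites and stays at 3.36 or less in the central windows of the others, and the GAGGAAGT panel peaks at 7.98 in member sites and 16.9 without C/EBPα.

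Sites with C/EBP letters had more of both C/EBP factors. The 82 sites with TTGCNNAA and AGGAAG had a median C/EBPβ of 47.3 at 48 h, and the 63 with TTGCNNAA alone had 69.0. The 190 sites with AGGAAG alone and the 141 with neither both had 25.6. C/EBPα, which the choice used, had medians of 27.0, 27.65, 16.3 and 17.6 at 48 h in the same order. At 3 h its medians were 13.9, 16.2, 8.54 and 8.985. PU.1 at 48 h differed little between these groups, with medians of 33.0, 29.6, 28.2 and 27.7 in the same order. The 17 sites with TTGCNNAA and the full GAGGAAGT (3.57%) had the highest PU.1 median, 42.0 at 48 h. Sites with PU.1 from 3 h on held GAGGAAGT in 5.00% (2.03 to 10.0), those from 12 h on in 13.1% (9.23 to 18) and those from 24 h on in 10.6% (4.96 to 19.1), with intervals that overlapped.

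Most sites were distal, and distances below are negative upstream of a gene's start. Promoters, within 1 kb of a protein-coding start, held 35 sites (7.35%, 5.17 to 10.1), compared with 15.7% of constant PU.1 sites and 6.15% of sites gained without C/EBPα. Introns held 210 sites (44.1%), intergenic DNA another 210, other exons 12 and UTRs 9. The shares of all bins in these features were not counted. The median distance to the nearest start was 16810 bp (quartiles 6520 and 44150 bp), and the sites had 427 different nearest genes.

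Genes near the sites were counted within 50 kb of any annotated start of a protein-coding gene (GENCODE, mm9). A total of 812 of 21275 genes (3.82%) had a member site in that window, 741 with 1 site, 69 with 2 and 2 with 3. The 2 genes with 3 sites were Cd36, a scavenger receptor for lipids, and Rgl1, a Ral exchange factor. By nearest start, Gm826 had 4 sites and Cd36, Pfkfb3 and Pid1 were among those with 3.

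The 12 sites with the most PU.1 at both late times had nearest genes of varied function. Some of these starts were far away, such as Kcnrg at 253982 bp, Tprg at -244602 bp and Cux1 at 107066 bp. They were chosen by PU.1 at 24 and 48 h. PU.1 first reached 15 at 3 h in 7 of them and at 12 h in 5. TTGCNNAA was in 2, GAGGAAGT in 1 and AGGAAG in 9 of the 12, against 30.5%, 10.3% and 57.1% of all 476 sites. Their C/EBPβ at 48 h spanned 3.94 to 114 scaled reads, so high late PU.1 was found with little and with much of it. The top Pid1 site (chr1:84403601-84403800, an intron of Dner, -122481 bp from the Pid1 start) had PU.1 of 2.84, 19.8, 80.3, 78.4 and 116 at 0, 3, 12, 24 and 48 h. C/EBPα there was 0, 1.2, 0, 1.54, 8.99, 72, 88.3 and 85.5 at 0 h, 10, 30 and 60 min, 3, 12, 24 and 48 h. C/EBPβ was 2.33, 3.42, 24.1, 44.8 and 114 at its 5 times, and the interval at 48 h was 86.8 to 148. PU.1 was over its limit at 3 h, and both C/EBP factors were over theirs from 12 h on. A further Pid1 site (chr1:84299401-84299600, intergenic, -18281 bp from the start) was later for PU.1, with 0, 6.08, 38.3, 63.4 and 95.5. Its C/EBPα of 108 at 48 h was the highest of the 12. Pid1 encodes a phosphotyrosine-binding adaptor that can bind Lrp1, an endocytic receptor, and the Lrp1 site (chr10:127069001-127069200, intergenic) had PU.1 of 2.84, 12.2, 90.5, 94.3 and 78.3. Its C/EBPβ was 0, 3.42, 6.89, 32 and 23.6, so PU.1 was at its late level at 12 h while C/EBPβ had few reads.

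The Ncf4 site (chr15:78088801-78089000, intron), which had a bin of 15 or more PU.1 at 0 h within 1 kb, had the least C/EBPβ at 48 h of the 12. Ncf4 encodes p40phox, a cytosolic subunit of the NADPH oxidase of phagocytes. PU.1 was 1.42, 22.8, 92.4, 83.7 and 90.8 at 0, 3, 12, 24 and 48 h, and C/EBPα was 4.51, 1.2, 5.38, 4.61, 18.9, 83.7, 30.3 and 33.9 over its 8 times. C/EBPβ was 2.33, 3.42, 17.2, 19.2 and 3.94, and its interval at 48 h was 0.477 to 14.2. PU.1 and C/EBPα were thus over their limits at 3 h, whereas 2 reads of C/EBPβ were found at 48 h. The Igsf6 site (chr7:128218001-128218200, -57 bp from the start of an immunoglobulin superfamily gene) had PU.1 of 1.42, 18.2, 116, 70.5 and 73.6 and C/EBPβ of 0, 12, 27.6, 48 and 67. The Ptafr site, near the gene of the platelet-activating factor receptor and the only one of the 12 with both full motifs, had PU.1 of 2.84, 15.2, 34.5, 57.3 and 77.4 and C/EBPα of 4.51, 2.41, 2.31, 3.58, 11.7, 18.4, 23.7 and 20.1.

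The 10 sites with the most C/EBPβ at 48 h form another group. They were chosen by C/EBPβ, which the definition of the sites did not use. TTGCNNAA was in 9 of the 10, GAGGAAGT in none and AGGAAG in 7. C/EBPα had reached 12 by 60 min in 8 of them, against 99 of all 476 sites (20.8%). PU.1 first reached 15 at 3 h in 7 and at 12 h in 3, and at 48 h it spanned 16.2 to 58.3. The Elk3 site (chr10:92731201-92731400, intron of an ETS-family repressor gene) reached C/EBPβ of 240.4 at 48 h with C/EBPα of 10.1, 5.62, 3.08, 6.65, 36.8, 41.9, 27.7 and 37.7 at 0 h, 10, 30 and 60 min, 3, 12, 24 and 48 h. At Abr (chr11:76401001-76401200, intron), C/EBPα was already 18 at 0 h and 115 at 60 min, and PU.1 was 2.84, 15.2, 20.5, 19.4 and 23.9. A bin within 1 kb of it held 15 or more PU.1 at 0 h. The Fkbp15 site was likewise over the C/EBPα limit at 0 h, with 15.8. At Lif, a cytokine gene of the IL-6 family, the site at chr11:4194601-4194800 had PU.1 of 1.42, 18.2, 33.6, 44.1 and 58.3 and C/EBPβ of 0, 49.6, 65.4, 96 and 162.

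A share of the listed macrophage genes above that of all genes had a member site nearby. The 13 lists of macrophage-related genes and 1 list of B-lineage genes used here were chosen with earlier results of these data known, so the counts describe and do not test. Of 195 listed macrophage genes 38 had a member site within 50 kb (19.5%, 14.2 to 25.8), against 3.82% of all genes. Constant PU.1 sites were also more frequent there, with 156 of 195 genes against 10377 of 21275. Sites gained without C/EBPα were near 6 of the 195 and near 281 of all genes. None of 24 B-lineage genes had a member site, which allows a share of up to 14.2% and so does not set them apart from all genes, while 21 of the 24 had a constant PU.1 site.

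Counts differed between the lists, each of which is small, and stand beside 3.82% of all genes. ITAM adaptors couple immune receptors to kinase signalling. The list of Fc receptors and ITAM adaptors, which also holds other receptors, had sites at 7 of 11 genes (interval 30.8 to 89.1%). These were Fcgr3, Fcgr4, Tyrobp, Trem2, Treml1, Treml2 and Sirpa. The C-type lectin, Siglec and Cd300 receptors had 8 of 17 (23.0 to 72.2%). Neighbouring genes can share a site, as Fcgr3 and Fcgr4 did, or Trem2, Treml1 and Treml2. The intervals count such genes as independent, so they understate the spread where genes of a list share a site. The colony-stimulating factor and IL-3 family receptors had 3 of 13 (5.04 to 53.8%) and inflammatory cytokines 3 of 14 (4.66 to 50.8%). Lipid handling genes had 3 of 16 (4.05 to 45.65%) and chemokines and their receptors 3 of 20 (3.21 to 37.9%). Lysosomal genes had 3 of 24 (2.66 to 32.4%) and myeloid transcription factors 2 of 23 (1.07 to 28.0%). Toll-like receptors had 1 of 15 (0.169 to 32.0%), leukocyte integrins 1 of 12 (0.211 to 38.5%) and matrix metalloproteinases 1 of 10 (0.253 to 44.5%). The intervals of the chemokine, lysosomal, transcription factor, Toll-like, integrin and metalloproteinase lists included the share of all genes. This describes the lists and does not test them. Granule proteins and lysozyme had 0 of 14, which allows up to 23.2% and so does not set them apart from all genes. Of these genes, 11 had a constant site.

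Several receptor genes had a site at the start itself. Fcgr3 encodes a low-affinity IgG receptor, and its site (chr1:172989401-172989600, 26 bp from the start) had PU.1 of 2.84, 6.08, 13.1, 17.6 and 41.1 at 0, 3, 12, 24 and 48 h. C/EBPβ was 4.67, 6.84, 24.1, 44.8 and 70.9, with 36 reads and an interval of 49.7 to 98.2 at 48 h. It was late for PU.1, which was over 15 from 24 h on, and C/EBPβ had passed 12 at 12 h. Tyrobp encodes DAP12, the ITAM adaptor of many myeloid receptors, and its promoter site (chr7:31198801-31199000, 94 bp from the start) had PU.1 of 1.42, 7.6, 71.9, 54.6 and 45.9. C/EBPα was 2.26, 1.61, 0, 1.54, 4.49, 5.02, 13.2 and 6.28 and C/EBPβ 2.33, 1.71, 10.3, 9.6 and 5.91, so C/EBPα was over its limit at 24 h alone and C/EBPβ at no time. A neighbouring site at chr7:31205401-31205600, -628 bp from the start of the sister adaptor gene Hcst, had PU.1 of 2.84, 41.1, 22.4, 18.5 and 19.1 and C/EBPα of 5.64, 2.01, 14.6, 23, 50.3, 93.8, 69.9 and 62.8. Both sites had a bin within 1 kb that held 15 or more PU.1 at 0 h, and so had the Sirpa site. The neighbours differed in their time courses, since PU.1 was highest at 3 h at Hcst and at 12 h at Tyrobp. Clec4e encodes Mincle, a lectin for mycobacterial glycolipids, and its site (chr6:123240001-123240200, -212 bp) had PU.1 of 1.42, 4.56, 12.1, 33.5 and 68.8 with C/EBPα of 1.13, 0.401, 0.769, 1.02, 4.49, 1.67, 3.95 and 15.1. The Siglec1 site at chr2:130912601-130912800, -200 bp from the start of the sialoadhesin gene, had PU.1 of 1.42, 3.04, 5.6, 16.7 and 25.8. All of the sites at Fcgr3, Clec4e and Siglec1 were first over 15 at 24 h.

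The Tlr2 gene, whose product senses bacterial lipoproteins, had an intronic site (chr3:83643401-83643600) with PU.1 of 2.84, 15.2, 53.2, 54.6 and 57.3 and C/EBPα of 1.13, 0.401, 5.38, 8.19, 19.8, 33.5, 11.9 and 7.54. C/EBPα was over its limit at 3 h and back to 7.54 at 48 h, while PU.1 stayed high. A distal Tlr2 site at chr3:83689401-83689600 showed the opposite balance, with PU.1 of 1.42, 9.12, 19.6, 15.9 and 18.2 and C/EBPα of 2.26, 2.01, 6.15, 16.4, 48.5, 58.6, 46.1 and 56.6. Cd36 had 3 sites in its introns, and all 3 held TTGCNNAA. The site at chr5:17360401-17360600 had PU.1 of 2.84, 22.8, 47.6, 32.6 and 22.9, that at chr5:17363201-17363400 had 1.42, 9.12, 14, 21.1 and 32.5, and that at chr5:17385801-17386000 had 0, 10.6, 30.8, 17.6 and 50.6. Their first times over 15 were 3, 24 and 12 h. The PU.1 intervals at 3 h overlapped, with 12.8 to 37.6, 3.35 to 19.9 and 4.28 to 21.9. The site counted from 24 h on held 14 at 12 h, just under the limit, so these onset times are not set apart. C/EBPβ at 48 h was 47.3, 45.3 and 78.8 at these sites.

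Klf6 encodes a zinc finger factor, and its distal site (chr13:5874801-5875000) had PU.1 of 2.84, 25.9, 45.7, 29.1 and 55.4 and C/EBPβ of 2.33, 22.2, 20.7, 41.6 and 49.3. Ccl2 encodes a monocyte chemoattractant, and its site (chr11:81820201-81820400) had PU.1 of 1.42, 19.8, 23.3, 30.8 and 33.4 and C/EBPα of 5.64, 7.22, 19.2, 29.2, 40.4, 48.6, 50.1 and 32.7. Both sites were over all 3 limits at 3 h. The Ccl2 and Mmp12 sites had a bin within 1 kb with 15 or more PU.1 at 0 h, as had a site near Ctsd. Those of Mmp12, the macrophage elastase gene, and Hexa, a lysosomal hexosaminidase gene, were later for PU.1. The Mmp12 site (chr9:7336801-7337000) had PU.1 of 1.42, 9.12, 12.1, 19.4 and 33.4 and C/EBPβ of 7, 6.84, 24.1, 64 and 100.5, and the Hexa site (chr9:59385601-59385800) had PU.1 of 0, 1.52, 10.3, 18.5 and 33.4 and C/EBPβ of 2.33, 1.71, 0, 12.8 and 35.5. At Il1a, an inflammatory cytokine gene, the site at chr2:129154001-129154200 had PU.1 of 1.42, 15.2, 30.8, 23.8 and 55.4 with C/EBPβ of 0, 5.13, 3.44, 12.8 and 41.4. A nearer Il1a site (chr2:129145601-129145800) had PU.1 of 1.42, 12.2, 61.6, 21.1 and 31.5 but never reached 12 for C/EBPβ.

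The factors differed in level at further sites near listed genes. The Itgb2 site (chr10:76999801-77000000), in an intron of the gene of the common beta chain of leukocyte integrins, had PU.1 of 1.42, 6.08, 28, 37.9 and 20.1 and C/EBPβ of 4.67, 6.84, 3.44, 6.4 and 1.97. C/EBPα there was 1.13, 0.401, 2.31, 0, 0.899, 13.4, 5.27 and 7.54, over its limit at 12 h alone. The Csf2rb site with the full PU.1 motif (chr15:78186001-78186200) lies near the gene of the common beta chain of the IL-3, IL-5 and GM-CSF receptors. It had PU.1 of 2.84, 7.6, 15.9, 18.5 and 18.2 and C/EBPα of 1.13, 1.61, 26.9, 34.3, 18.9, 36.8, 34.3 and 16.3, with C/EBPα over its limit from 30 min on, and C/EBPβ of 0, 6.84, 3.44, 28.8 and 11.8. At Abca1, a cholesterol exporter gene, C/EBPα was well above PU.1 on this scale. Its site (chr4:53133401-53133600) had C/EBPα of 1.13, 1.61, 1.54, 2.05, 27.9, 73.7, 64.6 and 71.6. C/EBPβ was 2.33, 10.3, 13.8, 19.2 and 37.4 and PU.1 was 1.42, 6.08, 20.5, 20.3 and 21.

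**Figure D5:**
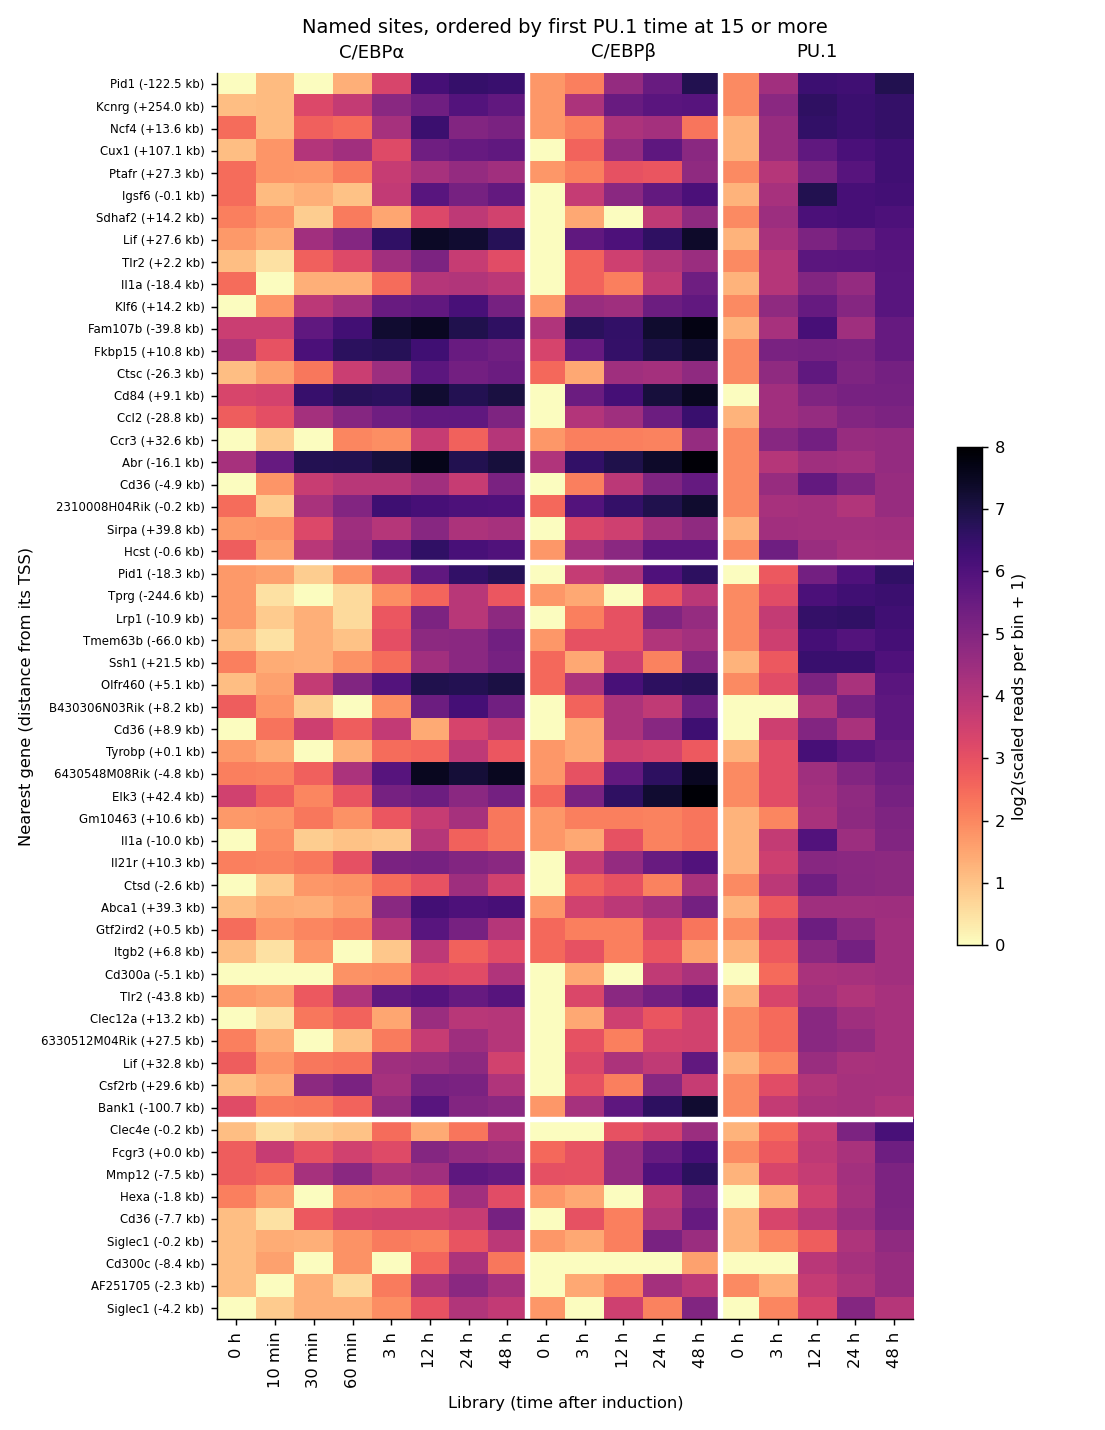
Scaled reads per bin, as log2 of the value plus 1, in all 18 libraries (columns) at 56 sites (rows), namely the highest for PU.1, the highest for C/EBPβ and those near genes of the lists, labelled by nearest gene and distance from its start in kb. Rows are grouped by the first time PU.1 reached 15, with 22 sites at 3 h, 25 at 12 h and 9 at 24 h; the rows with the darkest C/EBPβ cells at 48 h, such as Elk3 and Abr, have lighter PU.1 cells than the Pid1 and Lrp1 rows.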

How the data were processed

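The deposited files list aligned ChIP-seq reads with position and strand on mm9. The submitters' notes name Bowtie and HOMER, with versions not given in the sources used here. The fragments averaged from 93 to 252 bp by the offset between strands, and 1 read was worth from 0.401 to 3.44 scaled reads. One read was kept per position and strand, 5′ ends were moved 75 bp inward, and reads were counted in bins of 200 bp on chromosomes 1 to 19 and scaled to 10000000. Adjoining bins were joined. Coverage used reads extended to 200 bp. Genes came from the GENCODE annotation of NCBIM37 (mm9), and sequences from that genome. The members and gene lists were chosen with earlier results of these data known. Named were the 12 sites highest for PU.1 at 24 and 48 h, the 10 highest for C/EBPβ at 48 h, the 8 genes with most sites within 50 kb (ties taken alphabetically), and sites near listed genes. Some named sites, 1 sequence and 1 gene list are not reported here. Of 200 listed macrophage genes, 195 were found in the annotation. Python 3.11.15, numpy 2.4.6, pandas 2.3.3, scipy 1.17.1 and samtools 1.23.1 were used. The selection code was run on simulated bins planted far above or below the limits, which does not test bins near the limits.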

Additional observations from a re-analysis of the deposited data

How the results depend on the processing

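Each of 7 results (the number of sites, their share of gained PU.1 sites, and the shares with PU.1 at 3 h, C/EBPβ at 48 h, C/EBPα at 60 min and either full motif) was recomputed under up to 9 other settings, 59 values in all, of which 49 moved by less than their interval, or by less than 1.5 times for the count. With limits 1.5 times higher there were 177 sites, with PU.1 at 3 h in 22.6%, C/EBPα at 60 min in 15.3%, TTGCNNAA in 40.7% and GAGGAAGT in 13.6%. Thinning the libraries of each factor to the smallest left 352 sites, with PU.1 at 3 h in 23.3%. With bins starting at 100, C/EBPα at 60 min was in 27.1% and GAGGAAGT in 14.0%. With 100 bp more on each side, TTGCNNAA was in 45.8% and GAGGAAGT in 16.8% of sites, against 17.8% and 2.43% of all such windows. The alternative without bins near PU.1 at 0 h was chosen after seeing the data. No paired analysis was possible because each factor and time had 1 library. The depth of the C/EBPβ libraries limits the onset times, and thinning shows that the number of sites depends on depth.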

Other observations

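Letters of other factors were also counted in the 476 sites. The AP-1 motif TGANTCA was in 20% (16.5 to 23.8) of member bins, 26.2% of PU.1 sites gained without C/EBPα and 24.5% of those in between, compared with 8.51% of constant PU.1 sites, 8.89% of the other C/EBPα bins and 5.96% of all bins. It was thus more frequent in all gained classes than in constant PU.1 sites. The RUNX core TGTGGT was in 25% (21.2 to 29.1) of member bins, 16.4% (11.5 to 22.4) of sites without C/EBPα, 20.9% (18.1 to 23.9) of those in between, 20.4% of the other C/EBPα bins, 16.9% of constant sites and 13.9% of all bins. For factors of the B lineage, the EBF1 motif TCCCNNGGG was in 2.52% (1.31 to 4.36) of member bins, 3.08% of sites without C/EBPα, 2.71% of those in between, 4.65% of constant sites, 6.52% of the other C/EBPα bins and 1.87% of all bins, and the E-box CAGGTG was in 5.04% (3.26 to 7.41) of member bins, 8.21% (4.76 to 13) without C/EBPα, 7.48% (5.73 to 9.57) in between, 11.2% of constant sites, 12.0% of the other C/EBPα bins and 12.0% of all bins. The member intervals overlapped those of both other gained classes for RUNX, EBF1 and the E-box. Median GC content was 48.0% in member bins and 42.0% in all bins.

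By chromosome, the density ranged from 9.07 sites per 100 Mb on chromosome 12 to 29.5 on chromosome 11. Of 34 different windows that the study displays for single loci, 1 overlapped a member site, that of Mmp12.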
